A study of Mus musculus with 6 samples.

Results

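The 40 genes described here encode proteins that copy DNA or carry cells through mitosis, and their messages were followed in RNA of exosomes, the small vesicles that cells release. They were chosen by name, as 13 genes of the G1/S transition and DNA synthesis and 27 genes of the G2 phase and mitosis. All 40 were listed in the table, out of 12384 genes, with 81 of its 27544 transcripts. The source was mouse dendritic cells of strain C57BL/6, grown from femur and tibia marrow for 7 days with GM-CSF (20 ng/ml) plus IL-4 (10 ng/ml), cytokines that drive marrow progenitors towards this antigen-presenting cell type. The immature group held exosomes of cells that received PBS for 24 h, and the mature group those of cells that received 5 µg/ml lipopolysaccharide (LPS), a bacterial cell wall component that activates dendritic cells. In both groups the cells were then washed, and exosomes were collected by differential ultracentrifugation from medium with 10% vesicle-depleted serum after another 48 h. There were 3 libraries per group, and the question was how the long RNAs of the exosomes differed with maturation. The protocol names LPS or PBS without naming the groups, and a treatment tag reads untreated for all 6 libraries, so the groups were taken from the titles and LPS was read as the agent of the mature one. The labels do not say whether libraries came from separate cultures or how many mice were pooled, so the p-values rest on a spread between samples that may be technical.

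A dividing cell loads the MCM helicase onto origins in G1, opens the DNA in S phase with Cdc45 and the GINS complex, copies it on the Pcna sliding clamp, and draws on nucleotides made by enzymes such as ribonucleotide reductase. Cyclins A and B with Cdk1 then start mitosis, Aurora and Polo-like kinases build the spindle, the checkpoint proteins Bub1 and Bub1b watch over kinetochores, and the anaphase-promoting complex ends mitosis by destroying cyclins and securin. Transcription of these genes is periodic. In quiescent cells the DREAM complex holds them down, at E2F sites for G1/S genes and at CHR elements for many G2/M genes, where NF-Y bound to CCAAT boxes supports their expression in dividing cells. Marrow cultures in GM-CSF expand from dividing progenitors, whereas dendritic cells at the end of differentiation divide little. Exosome RNA is a bulk measurement in which fewer vesicles from dividing cells and less of a message per vesicle cannot be told apart.

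Values are FPKM, mapped fragments corrected for transcript length and for the size of the library, summed over the transcripts of a gene. Values of a gene are given for immature libraries 1, 2 and 3 and then for mature libraries 1, 2 and 3. FPKM summed to between 130401 and 281368 per library. Transcripts at an FPKM of at least 0.5 numbered 10912 in immature library 2 and 12924 in mature library 1, and 15432 to 18775 in the other 4. These 2 libraries stood apart in mitochondrially encoded transcripts too, at 2.55% and 0.940% of the summed FPKM against 0.0696% to 0.282% elsewhere. Read totals are unknown. Relative depth, estimated from the steps between low values, was 1.15 in immature 2 and 1.18 in mature 1 against immature 1, and 0.992, 0.904 and 0.756 in immature 3, mature 2 and mature 3. Few of the ratios behind it fell at the step, 9 of 1288 to 18 of 1684, so it is a rough estimate. The method returns a value even where there is no step, so the order of the libraries in depth is not settled.

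Cell cycle messages were found in every library, and their amount varied several-fold between libraries of 1 group. The 40 genes summed to 173, 72.7 and 456 FPKM across immature libraries 1 to 3 and to 62.5, 363 and 180 FPKM across mature libraries 1 to 3. Immature 3 and mature 2 were high, immature 2 and mature 1 were low, and the groups overlapped over most of their range. The group means were 234 ± 199 and 202 ± 152 FPKM (SD, n = 3 each), a difference of -32.0 FPKM, smaller than either SD. As a share of the summed FPKM, the 40 genes made up 0.119%, 0.0535% and 0.213% in the immature libraries and 0.0479%, 0.129% and 0.0733% in the mature ones, so the order within each group held after division by the library total. All 40 genes reached 0.5 FPKM in immature 3 and in mature 2. In immature 1 and mature 3 the number was 35 and 34, and in immature 2 and mature 1 it was 24 and 23.

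The order of the libraries was shared by most of these genes. Immature 3 was the highest immature library for 38 of the 40, the exceptions being Pcna and Cenpa, and mature 2 was the highest mature library for 37, all but Pcna, Cdca8 and Cenpa. Of the 37 that entered the test described below, the numbers were 35 and 34. Among all 10277 tested genes, immature 3 led its group for 56.2% and mature 2 for 56.9%. At the other end, immature 2 was lowest or tied lowest of its group for 33 of the 40 and mature 1 for 38. Of the 37 tested, the numbers were 30 and 35, against 59.2% and 77% of all tested genes. All 4 placings held together for 32 of the 40, and for 29 of the 37 tested, against 29.3% of all tested genes. In 33 of the 40, both immature 3 and mature 2 stood above all other 4 libraries. This held for 30 of the 37 tested, compared with 27.3% of all tested genes. The libraries named here were picked after their values were seen, so these counts are descriptions. Within a gene, the highest and lowest libraries differed by a median of 2.47 on the log2(FPKM + 1) scale, against 1.73 for all tested genes.

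**Figure D1:**
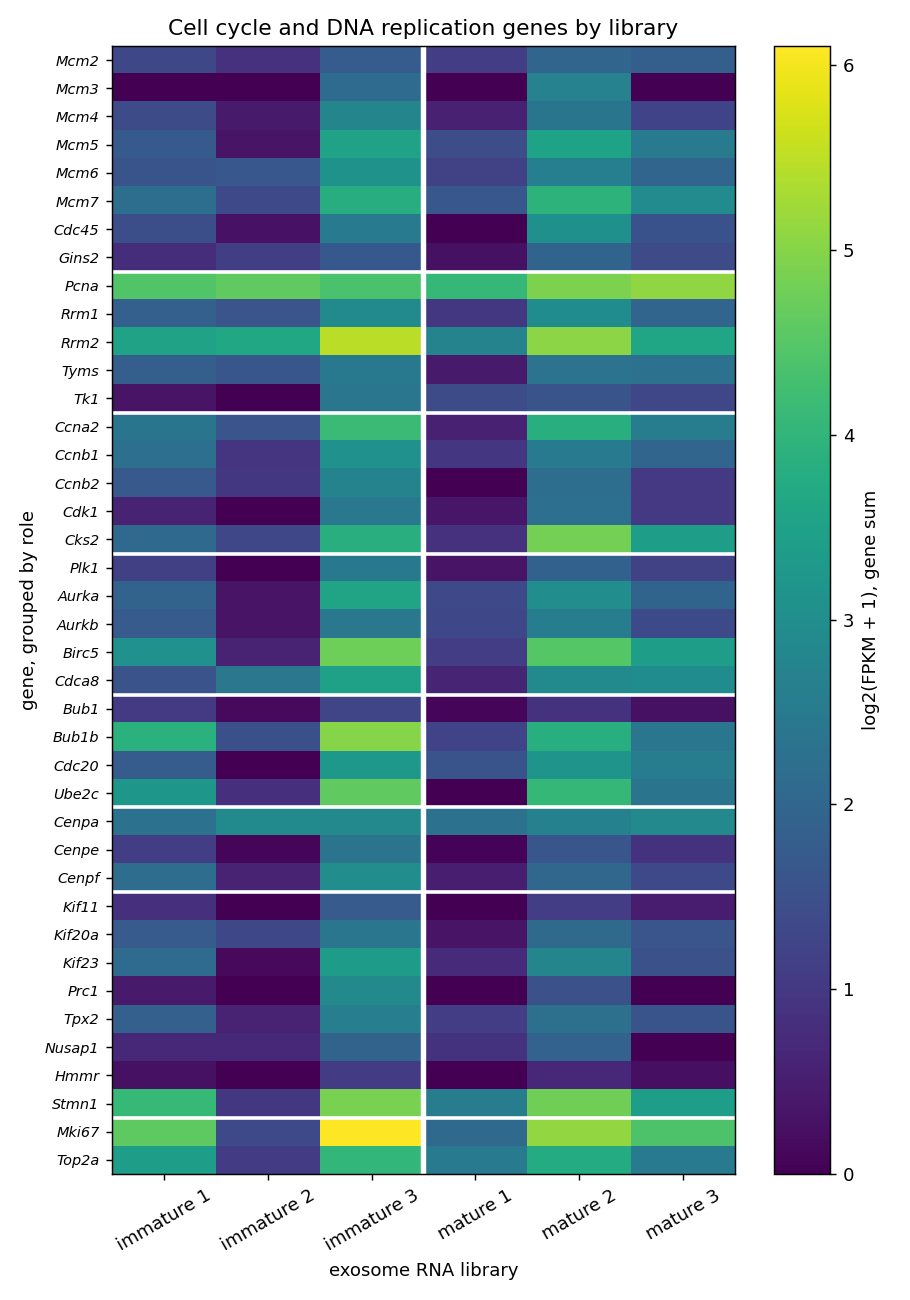
Each row is 1 of the 40 genes, grouped by role with white lines between roles, and each column 1 exosome RNA library; colour gives the level as log2(FPKM + 1) of the gene sum. Immature 3 and mature 2 are the bright columns of their groups and immature 2 and mature 1 the dark ones, while Pcna and Cenpa keep nearly 1 colour across the 6 libraries.

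Sums of the G2/M genes spanned a wider range over the libraries than sums of the G1/S genes. The 27 G2/M genes summed to 123, 26.9 and 328 FPKM across immature libraries 1 to 3 and to 31.0, 236 and 105 FPKM across mature libraries 1 to 3, a 12.2-fold range over the 6 libraries. The 13 G1/S genes summed to 50.3, 45.8 and 127 FPKM and to 31.5, 127 and 74.8 FPKM, a 4.05-fold range. The ratio of G2/M to G1/S sums was 2.44, 0.589 and 2.58 in the immature libraries and 0.983, 1.86 and 1.41 in the mature libraries. It was lowest in immature 2 and mature 1, the libraries lowest in cell cycle messages. The G2/M genes are part of that total, so the 2 orders are not independent. The ratio averaged 1.87 ± 1.11 for immature exosomes and 1.42 ± 0.439 for mature exosomes (SD, n = 3 each), and the difference of -0.453 lay within the spread between libraries. Pcna held a large part of the G1/S sum in the low libraries. Without it the G1/S sums ran from 15.6 to 108 FPKM, a 6.92-fold range, and the ratios were 4.17, 1.21 and 3.04 for immature exosomes and 1.98, 2.40 and 2.54 for mature exosomes. Roles within a phase differed too. In G1/S the helicase and origin genes ranged 8.14-fold and the clamp and nucleotide genes 3.19-fold. In G2/M the centromere genes ranged 4.05-fold and the other roles 11.3-fold to 31.5-fold.

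**Figure D2:**
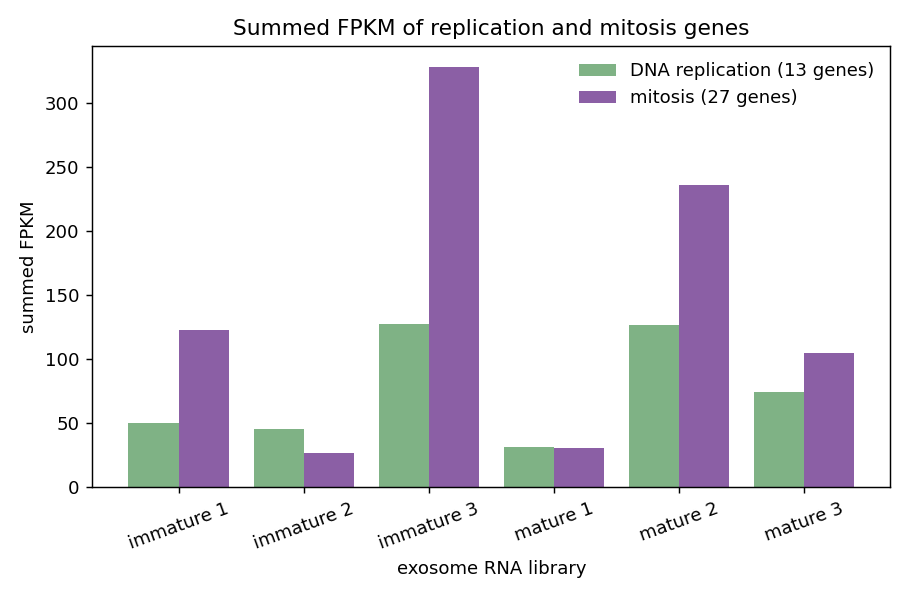
Bars give the summed FPKM of the 13 DNA replication genes and the 27 mitosis genes in each of the 6 libraries, on an axis that starts at 0. The mitosis bar falls below the replication bar in immature 2 and mature 1 and reaches 328 FPKM in immature 3.

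The promoters of 6 of these genes are printed to show the elements that the cell cycle genes shared beyond their names. Mki67, Ccnb1 and Ube2c followed the library order and stand for the G2/M genes, Mcm5 stands for the replication helicase, and Pcna and Cenpa are the genes whose levels stayed nearly level. Sequences are from RefSeq on GRCm38.p6, 250 bases before to 50 bases after the start site, 5′ to 3′ on the gene's own strand. Capitals mark the letters CCAAT, called a CCAAT box, and the core of a CHR, spelled either TTTGAA or with the middle changed, TTTAAA. They also mark E2F-like matches, spelled TTCCCGC, with another middle TTCGCGC, in the further form TTGCCGC, and in the last form TTGGCGC. Both strands were read, so a CCAAT box also appears as ATTGG, a CHR core also as TTCAAA, and the last E2F-like form also as GCGCCAA.
Mki67 promoter, chr7:135716330-135716629, minus strand: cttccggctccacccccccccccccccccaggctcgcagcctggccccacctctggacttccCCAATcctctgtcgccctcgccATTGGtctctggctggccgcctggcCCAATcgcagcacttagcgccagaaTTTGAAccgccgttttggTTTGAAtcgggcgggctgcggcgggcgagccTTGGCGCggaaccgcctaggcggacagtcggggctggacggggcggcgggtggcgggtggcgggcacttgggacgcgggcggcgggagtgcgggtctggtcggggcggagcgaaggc
Ccnb1 promoter, chr13:100786437-100786736, minus strand: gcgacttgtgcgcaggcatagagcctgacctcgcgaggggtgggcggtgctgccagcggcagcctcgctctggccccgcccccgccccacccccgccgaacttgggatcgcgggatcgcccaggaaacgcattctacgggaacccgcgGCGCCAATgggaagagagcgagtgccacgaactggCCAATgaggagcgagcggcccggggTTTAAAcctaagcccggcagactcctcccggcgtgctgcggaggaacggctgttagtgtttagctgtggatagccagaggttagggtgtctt
Ube2c promoter, chr2:164769679-164769978, plus strand: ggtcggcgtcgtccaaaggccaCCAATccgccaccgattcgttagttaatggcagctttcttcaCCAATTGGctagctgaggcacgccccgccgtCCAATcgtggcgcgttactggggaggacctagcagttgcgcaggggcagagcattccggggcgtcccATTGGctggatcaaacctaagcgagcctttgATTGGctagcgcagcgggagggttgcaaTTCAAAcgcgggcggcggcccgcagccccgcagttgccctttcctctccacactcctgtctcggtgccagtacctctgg
Mcm5 promoter, chr8:75109259-75109558, plus strand: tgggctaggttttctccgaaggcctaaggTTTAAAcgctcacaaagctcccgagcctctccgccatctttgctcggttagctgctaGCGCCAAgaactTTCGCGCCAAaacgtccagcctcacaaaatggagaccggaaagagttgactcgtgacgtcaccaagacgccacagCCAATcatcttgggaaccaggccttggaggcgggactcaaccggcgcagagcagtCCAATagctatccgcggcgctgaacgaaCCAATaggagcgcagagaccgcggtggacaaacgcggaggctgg
Pcna promoter, chr2:132253131-132253430, minus strand: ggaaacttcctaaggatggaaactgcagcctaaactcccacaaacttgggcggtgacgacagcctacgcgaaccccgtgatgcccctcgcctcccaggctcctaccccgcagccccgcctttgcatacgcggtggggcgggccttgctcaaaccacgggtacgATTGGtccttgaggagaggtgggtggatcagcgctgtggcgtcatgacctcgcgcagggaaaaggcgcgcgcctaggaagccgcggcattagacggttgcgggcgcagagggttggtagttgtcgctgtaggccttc
Cenpa promoter, chr5:30666636-30666935, plus strand: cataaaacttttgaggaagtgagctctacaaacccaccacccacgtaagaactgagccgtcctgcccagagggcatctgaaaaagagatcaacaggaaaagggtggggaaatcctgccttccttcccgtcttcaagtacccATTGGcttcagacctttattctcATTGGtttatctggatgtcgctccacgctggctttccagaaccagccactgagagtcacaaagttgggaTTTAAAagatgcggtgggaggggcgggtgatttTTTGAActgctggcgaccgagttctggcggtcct

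Promoters were in the table for 33 of the 40 genes, 35 promoters in all; Gins2, Mcm4, Kif20a, Aurkb, Tpx2, Ccna2 and Stmn1 had none there. Mcm7 and Prc1 had 2 promoters each. Those of Prc1 overlap, so the same CCAAT and CHR matches of Prc1 are counted in both. A CCAAT box match was found in 31 of the 35 (88.6%), against 37.4% of 32851 promoters of the same length, and a CHR match in 25 (71.4%), against 27.6%. An E2F-like match was found in 11 (31.4%), against 9.57% of all promoters. The letters GGGCGG, a common GC box, were in 30 (85.7%) against 35.7%, and GC content was 57.9% and 53.8%. Of 23 G2/M promoters, 20 held a CHR match and 19 held both a CHR and a CCAAT match (82.6%), and 4 held an E2F-like match. Of 12 G1/S promoters, 7 held an E2F-like match (58.3%), 5 a CHR match and 4 both a CHR and a CCAAT match. CCAAT matches overlapped a CHR match in 1 promoter, an E2F-like match in 2 and a GC box in 1, and the other pairs of motifs did not overlap in any of the 35. The Pcna promoter held a CCAAT match and neither of the other marked elements, whereas that of Cenpa held CCAAT and CHR matches, as did those of Mki67, Ccnb1 and Ube2c. A match is a description of the letters, not evidence of binding.

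Between the groups, no cell cycle gene passed the test. Genes at 0.5 FPKM or more in at least 3 libraries were compared with limma on log2(FPKM + 1), and 37 of the 40 entered it; Mcm3, Prc1 and Hmmr reached that level in only 2 libraries. None of the 37 (0 genes) passed an adjusted p of 0.05, against 19 of the 10277 genes tested (0.185%), all of them higher in the mature group. At an unadjusted p under 0.05, 0 of the 37 were higher and 0 lower, where 9.52% of all genes were higher and 0.224% lower. In 0 of the 37 did all 3 mature values lie above or below all 3 immature values, while 16.7% of all genes had them all above and 0.642% all below. The median log2 fold change, mature over immature, was -0.14 for the 37 and 0.38 for all tested genes, and 32 of the 37 lay below that median of all genes. Fold changes ran from -0.97 for Bub1b to 0.77 for Cdc20, 15 positive and 22 negative, and the lowest adjusted p was 0.745, for Ccnb2. The test had limited precision for genes as variable as these. The 95% intervals included a log2 fold change of 1 for 31 of the 37 and of -1 for 33, so the data do not show that levels were equal. Under scalings that remove the shift of all genes, the median of the 37 was -0.45 to -0.51. With 1 library left out, the median of the tested cell cycle genes ran from -0.65 without immature 2 to 0.38 without immature 3. The median of all genes moved too, and was 0.23 and 0.55 in those settings.

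**Figure D3:**
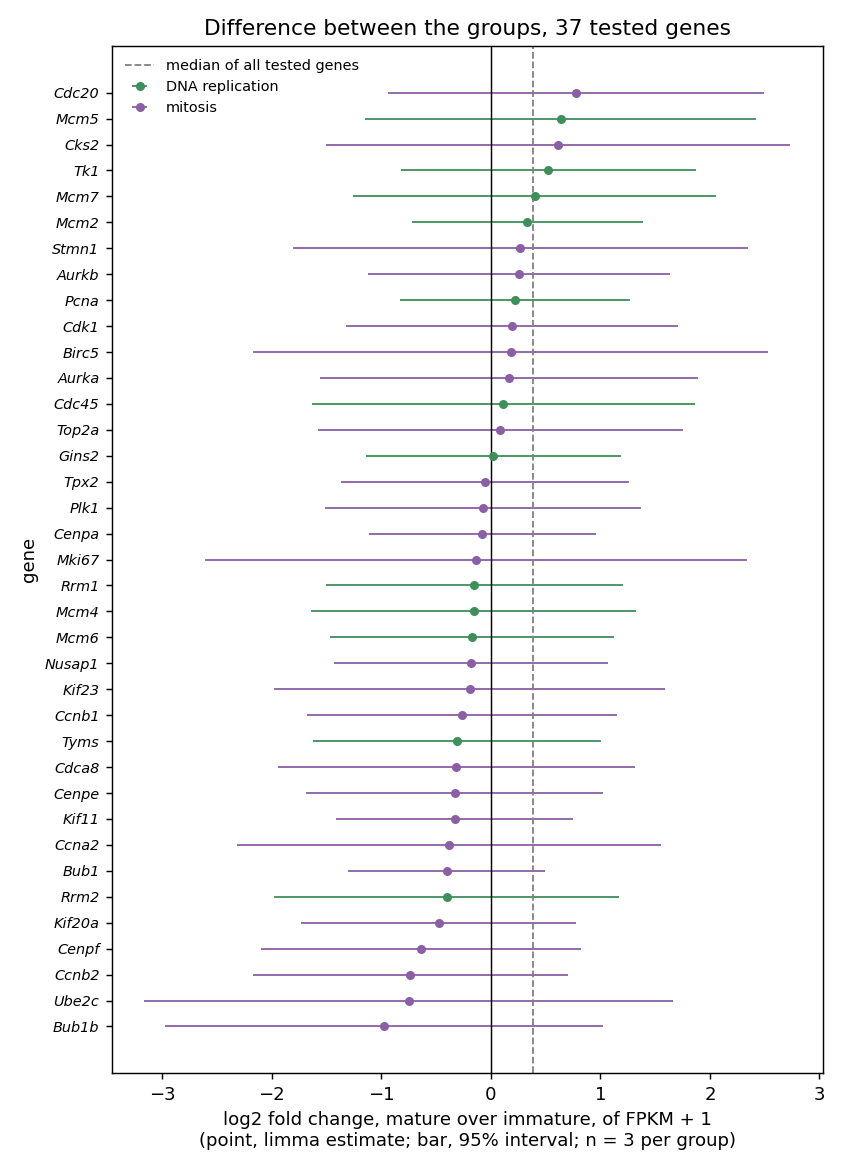
Points give the log2 fold change of mature over immature exosomes for the 37 tested genes, with limma's 95% intervals (n = 3 libraries per group); green marks DNA replication genes and purple mitosis genes, and the dashed line the median of all tested genes, 0.38. Every interval spans 0, and Bub1b and Cdc20 are the ends of the range, at -0.97 and 0.77.

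The MCM helicase, the ring of Mcm2 to Mcm7 that unwinds DNA at the fork, had its 3 most abundant subunits highest in immature 3 and mature 2 of the 2 groups. Mcm7 measured 3.64, 1.53 and 13 FPKM across immature exosomes and 2.14, 14.5 and 6.76 FPKM across mature exosomes. Mcm5 measured 2.32, 0.249 and 10.4 FPKM and then 1.72, 10.6 and 4.64 FPKM. Mcm6 measured 1.98, 2.18 and 7.64 FPKM and then 1.32, 5.24 and 2.95 FPKM. The groups overlapped for all 3 subunits, and Mcm6 was lowest of the immature libraries in immature 1, not in immature 2. Their log2 fold changes were 0.40 (SE 0.75), 0.64 (SE 0.81) and -0.17 (SE 0.59), with limma adjusted p-values of 0.909, 0.845 and 0.956. Mcm3, another subunit of the ring, was listed at 0 in 4 libraries, with 3.42 FPKM in immature 3 and 5.56 FPKM in mature 2. Mcm2, Mcm4, the helicase activator Cdc45 and the GINS subunit Gins2 were tested as well, with log2 fold changes from -0.16 for Mcm4 to 0.33 for Mcm2. Cdc45 reached 4.66 FPKM in immature 3 and 7.30 FPKM in mature 2 and was listed at 0 in mature 1. Gins2 was lowest in mature 1, at 0.218 FPKM, and highest in mature 2, at 2.94 FPKM.

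Pcna, the sliding clamp that holds polymerases on DNA, lies at chr2:132249162-132253314 on the minus strand and did not follow the library order. It measured 20.8, 23.6 and 19.4 FPKM across immature exosomes and 15.9, 28.8 and 33.3 FPKM across mature exosomes. Immature 3 was the lowest immature library and mature 3 the highest mature one, with a highest to lowest ratio of 2.10. Its log2 fold change was 0.22 (SE 0.48, limma adjusted p = 0.924), with a 95% interval from -0.83 to 1.27. Rrm2, the S-phase subunit of ribonucleotide reductase, measured 10.4, 11.5 and 43.2 FPKM across immature exosomes and 5.64, 32.1 and 11.3 FPKM across mature exosomes. Its partner Rrm1 measured 2.67, 2.03 and 6.60 FPKM and then 0.970, 6.86 and 3 FPKM. Both subunits were highest in immature 3 and mature 2 of their groups, and their log2 fold changes were -0.40 (SE 0.71) and -0.15 (SE 0.61). Tyms and Tk1, which make and salvage thymidine nucleotides, ranged from 0.354 to 4.57 FPKM and from 0 to 4.25 FPKM. Tk1 was 1 of the 2 genes of the 40, with Nusap1, for which mature 1 was not the lowest or tied lowest mature library.

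The genes that start mitosis were low in the same pair of libraries. Ccna2, the cyclin A2 gene of S and G2 phase, measured 4.18, 2.03 and 16.9 FPKM across immature exosomes and 0.467, 13.5 and 5.00 FPKM across mature exosomes. Ccnb1, the cyclin B1 gene, measured 3.65, 0.896 and 7.47 FPKM and then 0.947, 4.61 and 2.96 FPKM. Cks2, which encodes a small subunit of cyclin-dependent kinases, measured 3.24, 1.48 and 13.4 FPKM and then 0.835, 27.3 and 9.54 FPKM. Mature 2 held the highest Cks2 value of the 6 libraries, while Ccna2 and Ccnb1 were highest in immature 3. Their log2 fold changes were -0.38 (SE 0.87), -0.26 (SE 0.64) and 0.62 (SE 0.96). Cdk1, the kinase itself, was listed at 0 in immature 2 and reached 4.47 FPKM in immature 3. Ccnb2, the cyclin B2 gene, was listed at 0 in mature 1, with 2.26, 0.988 and 5.59 FPKM among immature libraries and 3.62 and 1.01 FPKM in mature 2 and 3. It had the lowest adjusted p of the 37 genes, with log2 fold change -0.73 (SE 0.65, limma adjusted p = 0.745).

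Among mitotic kinases and their partners, Birc5 was the most abundant. Birc5 encodes survivin, which with Cdca8 (borealin) and the kinase Aurkb is part of the chromosomal passenger complex. It measured 7.57, 0.506 and 26.1 FPKM across immature exosomes and 1.15, 21.4 and 9.63 FPKM across mature exosomes. Aurka, the Aurora kinase of the spindle poles, measured 2.86, 0.246 and 10.8 FPKM and then 1.53, 7.02 and 2.94 FPKM. Both followed the library order, with log2 fold changes of 0.18 (SE 1.06) and 0.17 (SE 0.78). Cdca8 measured 1.94, 4.34 and 10.3 FPKM and then 0.537, 6.61 and 6.89 FPKM, so that mature 3 was just above mature 2. The isoforms lay apart here. The coding transcript Cdca8-202 was at 6.61 FPKM in mature 2 and 3.37 FPKM in mature 3, and a processed transcript, Cdca8-203, was at 3.51 FPKM in mature 3 and listed at 0 in mature 2. Aurkb ran from 0.247 to 4.95 FPKM, and the Polo-like kinase gene Plk1 from 0 to 4.55 FPKM.

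Spindle checkpoint and anaphase genes included the largest negative fold change. Bub1b, which encodes the checkpoint protein BubR1, measured 13.9, 1.82 and 30.9 FPKM across immature exosomes and 1.33, 13.4 and 4.25 FPKM across mature exosomes. Immature 1 and 3 stood above all mature libraries, immature 1 only just above mature 2, and immature 2 lay near mature 1, so the groups overlapped. Its log2 fold change was -0.97 (SE 0.90, limma adjusted p = 0.759), with a 95% interval from -2.97 to 1.02. Ube2c, the ubiquitin-conjugating enzyme of the anaphase-promoting complex, measured 8.36, 0.777 and 23.4 FPKM and then 0, 15.8 and 4.06 FPKM, with a log2 fold change of -0.75 (SE 1.09). Cdc20, the activator of the same complex, measured 2.44, 0 and 8.49 FPKM and then 2.02, 7.95 and 5.06 FPKM, with the largest positive log2 fold change, 0.77 (SE 0.78). On the values as deposited, the fold changes of Ube2c and Cdc20 had opposite signs, and neither passed the test. Bub1, the kinase partner of Bub1b, stayed between 0.0669 and 1.44 FPKM.

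Of the centromere genes, Cenpa varied least between libraries. Cenpa, the histone H3 variant that marks centromeres, measured 3.85, 6.52 and 6.28 FPKM across immature exosomes and 3.81, 5.44 and 6.28 FPKM across mature exosomes. The highest to lowest ratio was 1.71, the smallest of the 40, and the log2 fold change, -0.08 with an SE of 0.47 (limma adjusted p = 0.979), had a 95% interval from -1.12 to 0.96. Cenpf, a kinetochore protein made in G2, measured 3.50, 0.527 and 6.91 FPKM and then 0.417, 3.04 and 1.53 FPKM, with a log2 fold change of -0.64 (SE 0.66). Cenpe, a kinetochore motor, ranged from 0.0406 to 4.10 FPKM. Pcna and Cenpa were the only 2 of the 40 with a highest to lowest ratio under 3, and 19 of the 28 genes above 0 in all 6 libraries had one over 10. The other 12 genes were listed at 0 in at least 1 library.

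Among spindle motors and microtubule proteins, Stmn1 was the most abundant. Stmn1 encodes stathmin, a microtubule-destabilizing protein, and measured 15.9, 0.989 and 28.3 FPKM across immature exosomes and 4.95, 26.5 and 9.56 FPKM across mature exosomes. Kif23, a kinesin of cytokinesis, measured 3.40, 0.106 and 9.20 FPKM and then 0.669, 5.91 and 1.87 FPKM. Tpx2, an Aurora A activator on spindle microtubules, measured 2.67, 0.520 and 5.15 FPKM and then 1.16, 3.78 and 1.98 FPKM. All 3 had the order of the libraries seen for the sums, with log2 fold changes of 0.27 (SE 0.94), -0.19 (SE 0.81) and -0.05 (SE 0.59). The kinesin genes Kif11 and Kif20a and the microtubule-binding Nusap1 reached 2.34, 4.30 and 2.87 FPKM, all in immature 3, with negative log2 fold changes of -0.33, -0.48 and -0.18. Prc1, which bundles microtubules of the central spindle, was at 6.38 FPKM in immature 3, 1.87 FPKM in mature 2 and 0.363 FPKM in immature 1, and was listed at 0 in the other 3. Hmmr, a spindle assembly factor, did not exceed 1.10 FPKM.

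Mki67, which encodes the proliferation marker Ki-67 of mitotic chromosomes, had the highest single value of the 40 genes and lies at chr7:135689784-135716361 on the minus strand. It measured 23.0, 1.55 and 67.8 FPKM across immature exosomes and 3.28, 33.8 and 20.3 FPKM across mature exosomes, with the groups overlapping throughout. The log2 fold change was -0.14 (SE 1.12, limma adjusted p = 0.984), and the 95% interval from -2.61 to 2.34 was the widest among the genes detailed here. It was 0.91 without immature 3 and -1.47 without immature 2, its extremes over the libraries left out. Top2a, the topoisomerase that untangles chromosomes, measured 9.52, 1.10 and 15.6 FPKM and then 4.61, 12.5 and 4.77 FPKM, with a log2 fold change of 0.09 (SE 0.75). Only 57.5% of its summed FPKM came from its coding transcript, Top2a-201, which measured 4.58, 1.10 and 10.3 FPKM and then 0.802, 8.10 and 2.70 FPKM. With coding transcripts alone the log2 fold change of Top2a was -0.38.

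Single transcripts were tested as well. Of the 81 transcripts, 69 are protein coding and 12 are processed transcripts, and coding transcripts held 93.0% to 98.2% of the summed FPKM of the 40 genes. Of the 50 tested, 0 passed the threshold, against 12 of 15972 transcripts (0.0751%). At an unadjusted p under 0.05, 0 of the 50 were higher and 0 lower, against 7.39% and 0.682% of all transcripts. Their median log2 fold change was -0.06, beside 0.31 for all transcripts. Apart from Top2a, the genes with the smallest coding shares were Kif23 at 72.0%, Cdca8 at 73.5% and Tyms at 82.6%.

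The rest of the pathway was read from 8 lists of 227 further cell cycle genes, of which 225 were listed and 195 tested. In limma 0 of them passed. At an unadjusted p under 0.05, 7 of the 195 were higher and 0 lower, and 16 had all mature values above all immature ones and 0 below. Both counts of higher genes lay below the background of all genes, 9.52% and 16.7%. The median log2 fold change was 0.13, below the 0.38 of all genes and above the -0.14 of the 37. All 7 higher genes at an unadjusted p lay in 3 lists, and 5 of them were among the 29 tested CDK inhibitors, pocket protein partners and p53 targets, beside 9.52% of all genes higher at that p. The list had the highest median of the 8, at 0.56. Gadd45b, a stress-response gene, measured 16.7, 39.4 and 11.4 FPKM across immature exosomes and 72.7, 156 and 193 FPKM across mature exosomes. All mature values exceeded all immature ones, with log2 fold change 2.66 (SE 0.61, limma adjusted p = 0.157). Its relative Gadd45g measured 11.8, 13 and 0 FPKM and then 24.7, 25.4 and 46.2 FPKM (log2 fold change 2.49, limma adjusted p = 0.405). Lin37, a subunit of the DREAM complex, measured 4.53, 2.60 and 7.18 FPKM and then 11.6, 13.3 and 14.7 FPKM (log2 fold change 1.37, limma adjusted p = 0.401). The 2 other genes of the list, which lie outside the naming rule, were Cdkn1a, which encodes the CDK inhibitor p21, and the antiproliferative Btg1. Cdkn1a measured 84.9, 83.4 and 57.2 FPKM and then 148, 189 and 239 FPKM, without overlap, and Btg1 measured 34.6, 51.9 and 17.2 FPKM and then 83.2, 54.8 and 90.1 FPKM. The sum of the list was 343, 455 and 346 FPKM in the immature libraries and 573, 797 and 895 FPKM in the mature ones, and it did not peak in immature 3 and mature 2. Without both immature 2 and mature 1, Gadd45b passed the test (log2 fold change 3.56, limma adjusted p = 0.0189). That fit had 2 libraries per group, and 61 of 9844 genes passed in it, against 19 of 10277 with all libraries. Under no other setting run did a gene of the 8 lists pass.

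The medians of the other 7 lists lay between -0.10 and 0.33. Among 23 tested G1/S cyclins, kinases and E2F factors the median was 0.15, and Ccnd3, the cyclin D3 gene, measured 10.8, 2.72 and 21 FPKM across immature exosomes and 21.3, 32.5 and 32.8 FPKM across mature exosomes (log2 fold change 1.57, limma adjusted p = 0.461). E2f2, a transcription factor gene of the G1/S wave, followed the library order instead, at 12.3, 2.71 and 52.8 FPKM and at 5.60, 58.3 and 26.6 FPKM. Ccnd2, the cyclin D2 gene, measured 29.7, 12.1 and 43.9 FPKM and then 32.7, 69.2 and 43.4 FPKM. The 25 tested genes of the anaphase-promoting complex and mitotic exit had a median of 0.33. Pttg1, which encodes securin, measured 2.99, 2.55 and 5.39 FPKM and then 7.35, 13.2 and 8.04 FPKM (log2 fold change 1.19, limma adjusted p = 0.465). Its mature values all lay above its immature ones. Anapc5, a subunit of the complex, measured 17.8, 6.97 and 42.4 FPKM and then 8.27, 49.5 and 30.1 FPKM, and Ube2s, its chain-elongating enzyme, had a log2 fold change of 0.41.

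Lists of the replication and chromosome machinery held 0 genes at an unadjusted p under 0.05, where 9.52% of all genes were higher and 0.224% lower. Medians were 0.04 for 18 origin licensing and firing genes, 0.26 for 30 polymerase and fork genes, -0.10 for 27 kinetochore genes, -0.08 for 22 other spindle and cytokinesis genes and 0.11 for 21 genes of condensin, cohesin and chromatin. Dbf4, the activator of the Cdc7 kinase, measured 4.02, 3.65 and 21 FPKM across immature exosomes and 1.01, 9.53 and 4.62 FPKM across mature exosomes. The origin recognition genes Orc3 and Orc4 had log2 fold changes of 0.11 and 0.47, and Orc4 was highest in immature 2. Dut, which removes dUTP, measured 7.46, 9.94 and 18.5 FPKM and then 3.55, 12.7 and 11.1 FPKM. Immature 3 and mature 2 led their groups for Dbf4 and Dut but not for Orc4. Pold4, a small subunit of DNA polymerase delta, measured 38.6, 26.0 and 29.3 FPKM and then 46.6, 49.6 and 60.4 FPKM, and topoisomerase Top1 was highest in immature 2, at 18.0 FPKM. Arhgap11a and Racgap1, which act on small GTPases in cytokinesis, had log2 fold changes of -0.54 and 0.06, and the spindle pole gene Numa1 one of 0.76. The kinetochore genes Zwint, Pmf1 and Mad1l1 had log2 fold changes of 1.19, 1.00 and 0.16. H2afz, a histone variant gene, measured 44.6, 50.2 and 78.0 FPKM and then 38.2, 169 and 88.2 FPKM, and H2afx, the variant of the DNA damage response, and Hmgn2, a nucleosome-binding protein gene, had log2 fold changes of 0.12 and 0.50.

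Marker sums of granulocyte progenitors, neutrophils and erythroid cells were highest in the same libraries as the cell cycle messages. The 11 granulocyte progenitor genes, all listed, summed to 10.6, 3.12 and 80.6 FPKM across immature libraries 1 to 3 and to 16.0, 49.7 and 25.9 FPKM across mature libraries 1 to 3, and 10 of the 11 were highest in immature 3 or mature 2. Ms4a3, a gene of granulocyte-monocyte progenitors, measured 6.36, 1.59 and 40.2 FPKM and then 4.51, 14.8 and 6.60 FPKM, and the elastase gene Elane measured 0.559, 0 and 6.08 FPKM and then 0, 3.44 and 0.373 FPKM. The 11 neutrophil genes summed to 251, 271 and 1418 FPKM and to 335, 2259 and 943 FPKM, all 11 highest in immature 3 or mature 2. Among all tested genes, 18.4% were highest in immature 3 and 36.6% in mature 2. The same libraries were high in both lists and in the 40 genes. The 9 listed erythroid genes of 11 summed to 19.4, 21.4 and 476 FPKM and to 39.2, 280 and 31.6 FPKM, and Alas2 and Klf1, genes of red cell precursors, were listed at 0 in the other 4 libraries. The 14 dendritic cell genes, all listed, summed to 1302, 1826 and 877 FPKM and to 2249, 2059 and 3390 FPKM, so that the sum was lowest, within each group, in immature 3 and mature 2. Flt3 was listed at 0 in immature 1 and 2, and Cd209a in all libraries except immature 3 and mature 2. The CD11c gene Itgax measured 25.5, 54.9 and 7.36 FPKM and then 21.4, 21.1 and 32.2 FPKM. Ribosomal protein transcripts made up 33.8% of the summed FPKM in immature 3 and 19.6% in mature 2, the highest of each group, and 12.6% and 11.9% in immature 2 and mature 1. The part of these markers, of ribosomal content and of depth in the cell cycle levels was not tested.

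**Figure D4:**
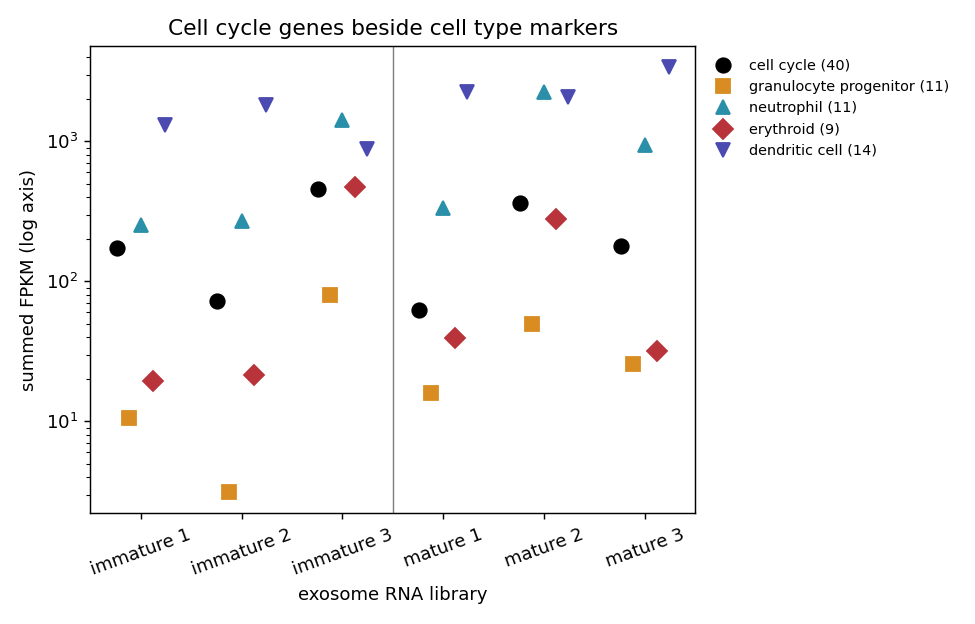
Points give the summed FPKM, on a log axis, of the 40 cell cycle genes and of 4 marker lists in each library, with the number of listed genes in the legend; points are set side by side within a library. The cell cycle, granulocyte progenitor, neutrophil and erythroid sums are highest in immature 3 and mature 2 of their groups, where the dendritic cell sum is lowest, at 877 and 2059 FPKM.

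None of the remaining marker lists had its highest sums in both immature 3 and mature 2 of their groups. Macrophage and monocyte genes summed to 137, 180 and 168 FPKM across immature libraries 1 to 3 and to 125, 488 and 363 FPKM across mature libraries 1 to 3, highest in mature 2 of its group but in immature 2 of the other. Mast cell and basophil genes, 7 of 10 listed, summed to 6.47, 15.0 and 10.4 FPKM and to 30.9, 63.3 and 68.0 FPKM. Genes of T, NK and B cells, 10 of 13 listed, summed to 13.4, 25.7 and 9.46 FPKM and to 58.6, 16.7 and 43.5 FPKM, lowest of each group in immature 3 and mature 2. Stromal and endothelial genes stayed between 11 and 32.6 FPKM. When immature 3 and mature 2 were both left out, a choice made after seeing the data, the difference in the summed FPKM of the 40 genes was -1.69 FPKM, and again 0 of the tested cell cycle genes, now 29, passed the test.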

How the data were processed

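The authors deposited FPKM values, 1 per transcript and library, per the file headers. Tools in the submitters' processing notes are cutadapt, STAR 2.5.2b, HISAT2 2.0.5 and StringTie, without their order, beside the build hg19. Rows carry mouse Ensembl identifiers, and all 40 genes overlapped their RefSeq position on GRCm38.p6. Per the labels' protocols, Trizol was used for RNA extraction and a TruSeq kit, with 1 µg of input, for the libraries.

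Transcript FPKM were summed per gene. FPKM are not counts, so no count model was used. Features at 0.5 FPKM or more in at least 3 libraries entered limma 3.58.1 (R 4.3.3, trend and robust options) on log2(FPKM + 1), without other scaling or a replicate block. P-values were Benjamini-Hochberg adjusted over all genes or transcripts, with a threshold of 0.05. Fold changes on this scale understate those of low genes. The procedure was tested on simulated data with independent noise for each gene. That test does not cover differences between libraries that many genes share, as seen here. Sums, markers and motifs were computed in Python 3.11.15 with pandas 2.3.3. Alternatives covered pseudocount, filter, scaling, coding transcripts and left-out libraries.

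The 40 genes and all lists were chosen with earlier results of these data known. The naming rule took the 2 or 3 most abundant genes of each role and up to 3 genes per pathway list, those past the threshold first, then those at an unadjusted p under 0.05, then the most abundant. The other genes named with values in each library, Mcm3, Prc1, Ccnb2, Cdc20, Cdkn1a, Btg1 and the markers, were added after their values were seen. Isoforms and paralogs may share reads. Depth is unknown, so no counting intervals are given.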

Additional observations from a re-analysis of the deposited data

How the results depend on the processing

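The 40 genes held 0 past the threshold under every alternative run, as did their transcripts. The count over all genes, 19, was 9 with a pseudocount of 0.1, 12 with median-of-ratios scaling, 61 without both immature 2 and mature 1, 44 without both immature 3 and mature 2 (chosen after seeing the data), and 0 to 27 with 1 library left out, at 7 without immature 1, 6 without mature 2 and 0 without mature 3. Cell cycle genes whose groups do not overlap, 0 as reported, numbered 2 of 37 with median-of-ratios scaling (Kif20a and Tyms, lower, as were 6.1% of all genes), 1 with upper-quartile scaling (Cenpa, lower, 5.61% of all genes) and 3 with quantile normalization (Kif20a, Tyms and Bub1, lower, 7.66%). They numbered 5 without both immature 2 and mature 1 (Mcm2 and Pcna higher, 48.5% of all genes, and Cenpf, Bub1 and Bub1b lower, 3.48%). With 1 library left out they numbered 0 to 3, where 18.6% to 40.8% of all genes were higher and 0.935% to 4.08% lower. Without immature 2, Cenpf, Bub1 and Bub1b were lower (2.97% of all genes), and without immature 1, Cenpa was lower (1.73%). Without immature 3, Tk1 was higher (27.6%), and without mature 1, Mcm2 and Pcna were higher (40.8%). Pathway genes past the threshold numbered 1 without both immature 2 and mature 1. At an unadjusted p under 0.05 there were 4 lower cell cycle genes with quantile normalization (Kif20a, Cenpf, Bub1 and Ccnb2), 2 lower without immature 2 (Cenpf and Bub1b) and 2 higher without immature 3 (Cdc20 and Tk1). The median log2 fold change of all genes in these settings was -0.04, 0.23 and 0.55. The share of all genes at that p is not given for them, so these counts cannot be told from background. The cause of the shifts between settings was not tested.

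The labels do not say whether same-numbered libraries shared a source. Deviations of same-numbered libraries from their group means correlated at -0.03, -0.45 and -0.13. With 3 libraries per group, these values cannot exclude pairing. With the replicate block, 5 genes passed over all genes and 0 of the 40.

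The signs of small fold changes moved. With median-of-ratios scaling Aurka was -0.14, Birc5 -0.22, Mcm7 -0.0228, Pcna -0.28, Stmn1 -0.14 and Top2a -0.30 (log2); with upper-quartile scaling -0.16, -0.24, -0.0157, -0.255, -0.15 and -0.31; with quantile normalization -0.34, -0.40, -0.105, -0.30, -0.31 and -0.45. With coding transcripts alone Kif23 was 0.0825, Tpx2 0.15 and Top2a -0.38; with a pseudocount of 0.1 Kif23 was 0.15 and Tpx2 0.0611. Without both immature 2 and mature 1 Aurka was -0.26, Cdca8 0.43, Cenpa 0.21, Rrm1 0.0858, Stmn1 -0.38 and Top2a -0.58; without both immature 3 and mature 2 Mki67 was 0.29 and Tpx2 0.11. With 1 library left out, the log2 fold changes ran over these ranges: Aurka -0.65 to 0.973, Birc5 -0.93 to 1.16, Ccna2 -1.14 to 0.509, Ccnb1 -0.84 to 0.241, Cdca8 -0.78 to 0.464, Cenpa -0.28 to 0.0921, Cks2 -0.28 to 1.7, Kif23 -1.06 to 0.542, Mcm5 -0.13 to 1.47, Mcm6 -0.52 to 0.325, Mcm7 -0.16 to 1.07, Mki67 -1.47 to 0.908, Rrm1 -0.65 to 0.353, Rrm2 -1.03 to 0.227, Stmn1 -0.89 to 1.05, Top2a -0.80 to 0.692, Tpx2 -0.60 to 0.41, Ube2c -1.78 to 0.317. Bub1b, Cenpf and Pcna kept their sign.

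With 1 library left out, the median of the cell cycle genes ran from -0.65 without immature 2 (0.23 for all genes) to 0.38 without immature 3 (0.55 for all genes). The difference of their sums ran from -113 to 79.0 FPKM and that of the G2/M to G1/S ratio from -1.09 to -0.10.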
